A study of Zea mays with 20 samples.

Results

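The maize line RIL118 was compared with the lines RIL99 and RIL54 at emerging tassel for gene expression in the ear internode, the length of stem at the node that carries the ear. The lines are recombinant inbred progeny of F288 x F271 and were picked by what they carry at 4 loci that affect how much lignin their walls hold and how degradable those walls are. RIL118 has the unfavorable allele at the locus in bin 9.02. RIL99 and RIL54 have only favorable alleles at these loci and are called the favorable lines here. They grew in the field under irrigation in a hot, dry summer, with no treatment. Each line gave 2 Affymetrix arrays at this stage, so the comparison rests on 2 RIL118 arrays and 4 arrays of the favorable lines, 6 of the 20 arrays in the series. The other arrays are the same lines at early silking, and RIL39 and RIL71, which carry the unfavorable allele at bin 6.06, at both stages. RIL118 is 1 line, so a difference at the bin 9.02 locus and any other difference between RIL118 and the favorable lines cannot be told apart. The labels do not say whether the 2 arrays of a line came from separate plants, so p-values measure only the spread between arrays.

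Walls of the internode first loosen and extend while cells elongate, and are later thickened with cellulose, xylan and lignin. Expansins act on walls of the first kind, and the secondary wall cellulose synthases and the phenylpropanoid pathway build walls of the second kind. Lignin is a main limit on how far the walls of forage maize are degraded, so the question is which transcripts set apart the line with the unfavorable allele.

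Values are log2 levels per probe set as deposited, and a difference of 1 is a factor of 2 in measured level. A probe set was called when its Benjamini-Hochberg adjusted p was under 0.05 in a limma fit to all 20 arrays with 1 mean for each of the 10 groups of line and stage. The main set of genes described below is those called against RIL99 and against RIL54 in the same direction. Members of gene lists were judged by the contrast with the favorable mean, and some called there were not called against both lines. Levels of different probe sets are not compared with each other.

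The RIL118 tassel arrays were the least alike of the 10 replicate pairs. Their correlation over the 11033 tested probe sets was 0.934, against 0.973 for RIL99 and 0.962 for RIL54 at the same stage, and replicate 2 correlated at 0.939 with replicate 1 of RIL118 at early silking. The pooled SD between the arrays of a line was 0.61 in RIL118, 0.40 in RIL99 and 0.47 in RIL54. The difference between replicate 2 of RIL118 and the favorable tassel mean correlated at 0.419 with the change from tassel to silking in RIL39 and RIL71, which share no array with it, and that of replicate 1 at 0.094. The favorable replicates also differed along that change. Replicate 2 minus replicate 1 correlated with it at 0.365 in RIL99 and -0.423 in RIL54, beside 0.287 in RIL118. These correlations are descriptions across probe sets, which share arrays and are not independent. The labels give 159.07 and 129.26 ng of RNA for the RIL118 arrays, 113.41 and 140.82 ng for RIL99, and 123.01 and 417.25 ng for RIL54. Results that rest on 1 RIL118 array are given with and without it below. Markers of the labelled tissue were bright on all 6 arrays: the secondary wall genes cesa10, cesa11, CesA12 and bk2 lay between 12.79 and 13.31 in RIL118 and between 11.94 and 13.89 in the favorable lines.

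Of the tested probe sets, 1887 (17.1%) differed between RIL118 and RIL99, 1170 of them higher in RIL118 (10.6%) and 717 lower (6.5%). Against RIL54 there were 1678 (15.2%), 988 higher (8.95%) and 690 lower (6.25%). The favorable lines differed from each other at the same stage in 1842 probe sets (16.7%), a count between those of RIL118 against either line. RIL118 was higher than both favorable lines in 357 probe sets (3.24%) and lower than both in 197 (1.79%), together 554 (5.02%). Another 62 (0.562%) were called against both lines in opposite directions. The difference from the favorable mean was at least 2-fold in 198 of the higher (1.79% of all tested) and 145 of the lower probe sets (1.31%). The contrasts share the RIL118 arrays, so their overlap was not tested. Both RIL118 arrays lay above all 4 favorable arrays in 16.7% of all tested probe sets and below them in 11.4%. Every one of the 357 and 197 called probe sets did so, and non-overlap of a called gene therefore adds nothing to its call. Both lay outside all 8 other tassel arrays in 68.6% of the higher and 51.3% of the lower set. Of all tested probe sets, 3105 lay outside the 4 favorable arrays, and 1457 (13.2%) outside all 8. The called sets lie outside the 4 favorable arrays by their call, so the 13.2% is not a like base for their shares. In extracts of a whole internode, fewer cells of a type and less RNA per cell cannot be told apart.

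**Figure D1:**
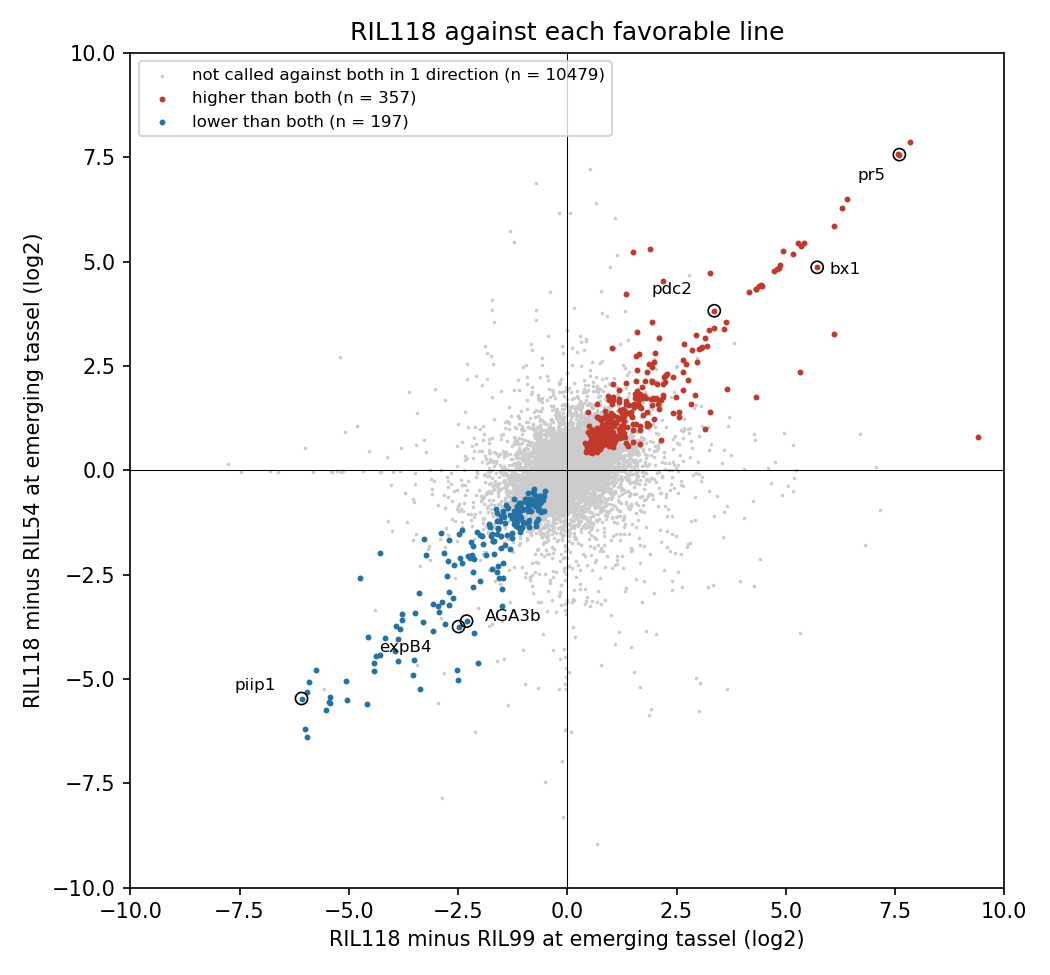
RIL118 minus RIL99 (x axis) against RIL118 minus RIL54 (y axis) at emerging tassel, both in log2 units, 1 point for each of 11033 tested probe sets. The 357 red points were higher in RIL118 than in both favorable lines and the 197 blue points lower than in both; circles mark pr5, bx1, pdc2, piip1, expB4 and AGA3b.

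Gene names were available for few of these probe sets. Of the maize probe sets on the array, 1452 have 1 listed gene and 16102 have none, and 842 named probe sets passed the filter. The 554 called probe sets held 34 with a named gene, which stood for 32 genes, and 520 without one. Of the named genes, 19 were higher in RIL118 and 13 lower.

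The largest difference of a named gene was in pr5 (chromosome 1), a pathogenesis-related protein of the thaumatin-like family. Its level was 9.52 and 11.34 in RIL118, against 2.92 and 2.74 in RIL99 and 2.91 and 2.82 in RIL54. The favorable arrays lay near the floor of the scale, where the lower quartile of an array was 2.21 to 2.29, and the files give no detection call, so the difference of 7.58 (SE 0.65, adjusted p = 7.66e-06) is given without a fold. No other line reached RIL118: the 4 tassel arrays of RIL39 and RIL71 lay between 2.89 and 3.64. It was the 1 named gene above 6 on both RIL118 arrays and below 4 on all 4 favorable arrays, a pattern that 20 probe sets had, while 16 had the reverse. Of 7 pathogenesis-related genes tested, pr5 alone was called in the contrast with the favorable mean, in which 16.3% of all tested probe sets were. The next largest difference, in prp4, was 2.51 with an adjusted p of 0.089. prp4 measured 3.32 and 5.69 in RIL118 against 1.76 to 2.23 on the favorable arrays.

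bx1 (chromosome 4), which makes indole in the first step of benzoxazinoid synthesis, the defense compounds of young maize, was also far higher in RIL118. Its level was 11.83 and 12.13 in RIL118, against 6.83 and 5.70 in RIL99 and 9.35 and 4.89 in RIL54. The groups did not overlap, as in every probe set called against both lines, and the RIL54 arrays disagreed widely with each other. The difference was 5.29 (SE 0.91, adjusted p = 0.0025), a factor of 39.2, and lay between 4.18 and 6.41 with 1 array left out. RIL39 measured 12.08 and 11.98 at the same stage, level with RIL118. Of the other benzoxazinoid genes tested, bx6 differed by 0.65 (adjusted p = 0.33), igl1 by 0.08 (adjusted p = 0.74) and glu1 by -1.71 (adjusted p = 0.17).

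pdc2 (chromosome 8), a pyruvate decarboxylase, the enzyme that turns pyruvate into acetaldehyde on the way to ethanol, was higher by 3.59 (SE 0.34, adjusted p = 1.84e-05). It measured 7.72 and 7.28 in RIL118, against 3.86 and 4.41 in RIL99 and 3.93 and 3.43 in RIL54. The favorable levels are low on the scale, so no fold is given. A second probe set of the gene measured 5.79 and 4.55 in RIL118, against 2.90 and 2.91 in RIL99 and 2.90 and 2.85 in RIL54. It was called against both lines. No array of another line was above 2.97, so it passed the filter only through RIL118 and adds no separate support. The related pdc3 went the other way in the mean contrast, at 10.18 and 10.80 in RIL118 against 11.37 and 10.99 in RIL99 and 12.24 and 12.57 in RIL54, a difference of -1.31 (adjusted p = 0.046), and was called against RIL54 but not against RIL99. That call was lost in 13 of 20 fits with 1 array left out, at an adjusted p of 0.31 without replicate 1 of RIL118 and 0.052 without replicate 2. The alcohol dehydrogenases adh1 and adh2, next in the pathway, differed by -0.13 (adjusted p = 0.61) and -0.42 (adjusted p = 0.20).

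HMT-2, PEAMT and MTK-1 are given together for their known roles, with no list fixed for them and so no count of their pathway. HMT-2 (chromosome 1), a homocysteine methyltransferase that regenerates methionine, measured 7.77 and 8.21 in RIL118, against 6.16 and 6.61 in RIL99 and 4.85 and 4.50 in RIL54, and was higher by 2.46 (SE 0.31, adjusted p = 2.23e-04). PEAMT, the phosphoethanolamine methyltransferase of choline synthesis, measured 10.71 and 10.30, against 9.09 and 8.75 in RIL99 and 8.18 and 7.35 in RIL54, and was higher by 2.16 (SE 0.35, adjusted p = 0.0016). MTK-1, methylthioribose kinase of the methionine salvage cycle, was higher by 1.07 (SE 0.19, adjusted p = 0.0026), at 8.18 and 7.88 against 6.64 and 6.98 in RIL99 and 7.23 and 6.97 in RIL54. In each of these genes both RIL118 arrays lay above all 8 tassel arrays of the other lines. The next enzyme of the salvage cycle went the opposite way: IDI2 (chromosome 4), also listed as M1Pi, methylthioribose-1-phosphate isomerase, measured 8.30 and 9.14 in RIL118, against 9.87 and 10.02 in RIL99 and 9.74 and 9.66 in RIL54, a difference of -1.11 (SE 0.22, adjusted p = 0.0066). A second MTK-1 probe set differed by 0.52 and was not called (adjusted p = 0.082). IDI2 was not called without replicate 1 of RIL118 (adjusted p = 0.11).

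thi1 (chromosome 8) and thi2 (chromosome 3), both of which make the thiazole ring of thiamine, were higher in RIL118 by 2.20 (SE 0.33, adjusted p = 0.0010) and 1.90 (SE 0.31, adjusted p = 0.0017). thi1 measured 10.07 and 10.63 in RIL118, against 7.60 and 7.45 in RIL99 and 9.44 and 8.10 in RIL54. thi2 measured 12.89 and 12.99, against 10.70 and 10.32 in RIL99 and 12.15 and 11 in RIL54. Both genes lay above every other tassel array of the series, and in both RIL99 was the lower of the favorable lines, a difference that was called for thi1 (1.24, adjusted p = 0.045) but not for thi2 (1.06, adjusted p = 0.062).

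Starch genes were higher where they were called. sbe1 (chromosome 5), a starch branching enzyme, measured 9.16 and 9.28 in RIL118, against 7.60 and 7.56 in RIL99 and 6.99 and 8.04 in RIL54, a difference of 1.67 (SE 0.26, adjusted p = 0.0011), a factor of 3.19. zpu1 (chromosome 2), the pullulanase that removes branches, measured 6.18 and 5.83, against 4.93 and 4.73 in RIL99 and 3.82 and 4.76 in RIL54, a difference of 1.44 (SE 0.23, adjusted p = 0.0017). Both RIL118 arrays lay above all 4 favorable arrays for either enzyme, as in every probe set called higher than both lines. RIL39, at 9.13 and 9.26, reached the same sbe1 level. AGP2 (gene ID 542737), taken into the starch list by its symbol, was called in the mean contrast and against RIL99 but not against RIL54, at 9.96 and 10.61 in RIL118, against 7.92 and 7.07 in RIL99 and 9.25 and 9.54 in RIL54. Of 9 starch genes tested, 3 were higher, 0 lower and 6 not called, and the median difference was 0.47, against 10.4% higher, 5.9% lower and a median of 0.03 over all tested probe sets. Of the genes not called, the starch synthase ss1 differed by 0.27 (adjusted p = 0.42) and the branching enzyme ae1 by 0.47 (adjusted p = 0.077), and leaving out either RIL118 array again gave 3 called.

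Of the other higher genes, SE1A (chromosome 1) and CAF1 (chromosome 7) differed by 3.09 (SE 0.31, adjusted p = 3.10e-05) and 1.13 (SE 0.20, adjusted p = 0.0033). Another 7 differed by 0.72 to 0.99, and psiP, set105, AR6 and brd103 among them were named after their values were seen. They are zap1, a MADS box gene, rpo2, a phage-type RNA polymerase of organelles, set105, a SET domain gene, brd103, a bromodomain gene, AR6, also listed as DMAS1, the deoxymugineic acid synthase of iron uptake in grasses, and psiP and m21. zap1 measured 12.18 and 12.11 in RIL118, against 11.54 and 11.50 in RIL99 and 11.38 and 11.25 in RIL54. AR6 measured 11.32 and 11.08, against 10.33 and 10.38 in RIL99 and 10.58 and 10.43 in RIL54. For zap1 and AR6 the favorable arrays were close together, and the differences from RIL118 were under 2-fold. The mean contrast of psiP, set105, AR6, m21 and brd103 was lost without replicate 1 of RIL118 (adjusted p of 0.061 to 0.14), and that of brd103 also without replicate 2 (adjusted p = 0.071) and without RIL99 replicate 1 or RIL54 replicate 2 (adjusted p of 0.070 and 0.066). set105 also lost its call without RIL99 replicate 1, at an adjusted p of 0.050, just over the threshold.

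**Figure D2:**
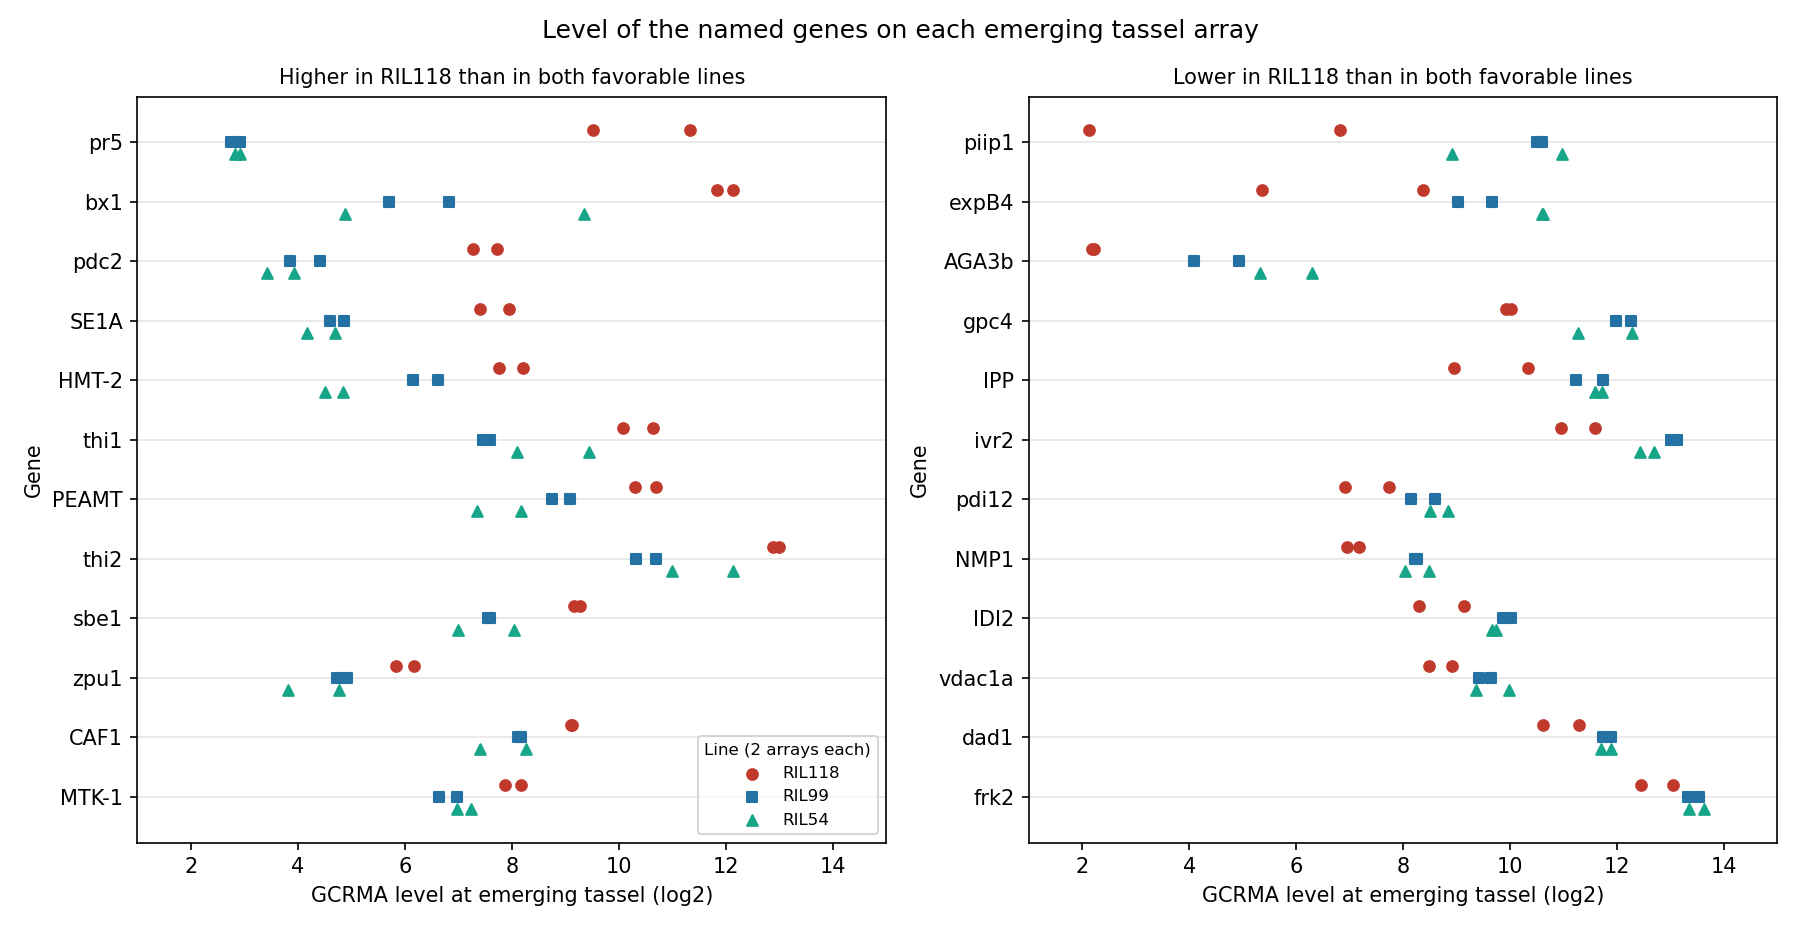
Log2 GCRMA level on each emerging tassel array (x axis) of the 12 named genes with the largest differences upward (left) and downward (right); circles are RIL118, squares RIL99 and triangles RIL54, 2 arrays each. The RIL118 circles lie outside all 4 favorable points in every row, as in every probe set called against both lines. They are far apart from each other for piip1 and expB4, while RIL54 is the line with the wide gap for bx1.

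Among the lower genes, the one that acts on growing walls was expB4 (chromosome 7), a beta-expansin. It measured 5.36 and 8.36 in RIL118, against 9.66 and 9.03 in RIL99 and 10.61 and 10.60 in RIL54, a difference of -3.12 (SE 0.61, adjusted p = 0.0053), so that the favorable lines were higher by a factor of 8.67, and lay between -4.62 and -1.61 with 1 array left out. The RIL118 arrays differed from each other by more than replicate 2 differed from RIL99, and RIL39 at 6.88 and 6.90 was also low. Without replicate 1 of RIL118 it was no longer called against both lines.

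ivr2, frk2 and gpc4, genes of sugar use, were also lower. ivr2 (chromosome 5), a soluble acid invertase that splits sucrose in the vacuole, measured 10.95 and 11.59 in RIL118, against 13.00 and 13.12 in RIL99 and 12.43 and 12.70 in RIL54, a difference of -1.54 (SE 0.34, adjusted p = 0.011). frk2 (chromosome 6), a fructokinase, measured 12.46 and 13.05, against 13.33 and 13.52 in RIL99 and 13.34 and 13.63 in RIL54, a difference of -0.70 (SE 0.18, adjusted p = 0.022). gpc4 (chromosome 5), a cytosolic glyceraldehyde-3-phosphate dehydrogenase of glycolysis, measured 9.93 and 10.01, against 12.27 and 11.98 in RIL99 and 11.28 and 12.27 in RIL54, a difference of -1.98 (SE 0.30, adjusted p = 9.78e-04). All 3 were lower on both RIL118 arrays than on every favorable array, as was every probe set called lower than both lines. The close relative gpc3 differed by -1.25 and was not called (adjusted p = 0.061), and its levels of 11.27 and 11.39 in RIL118 also lay under the favorable range of 12.31 to 12.88. The sucrose synthases ss2 and sh1 differed by 0.10 (adjusted p = 0.56) and -0.49 (adjusted p = 0.24), and the cell wall invertase incw1 by 0.01 (adjusted p = 0.99). ivr2 and frk2 were not called without replicate 1 of RIL118 (adjusted p of 0.14 and 0.27), and frk2 also not without replicate 2 of RIL99 or of RIL54 (adjusted p of 0.056 and 0.063). Of 7 sucrose genes tested, ivr2 was the 1 called, and of 11 genes of glycolysis and fermentation, pdc2 was higher and gpc4 and pdc3 were lower. Over all tested probe sets, 16.3% were called in the contrast with the favorable mean, 10.4% higher and 5.9% lower.

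AGA3b (chromosome 1), an alkaline alpha-galactosidase, the type of enzyme that frees galactose from raffinose sugars, measured 2.19 and 2.21 in RIL118, against 4.92 and 4.09 in RIL99 and 5.33 and 6.30 in RIL54. The RIL118 values lie at the low end of the arrays' scale, so the difference of -2.96 (SE 0.29, adjusted p = 2.50e-05) has no readable fold. RIL39 and RIL71 held it at 5.72 to 7.20, so RIL118 was the 1 line of 5 at the low end of the scale at this stage.

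pdi12 (chromosome 2), a protein disulfide isomerase that folds proteins in the endoplasmic reticulum, and dad1 (chromosome 9), a subunit of the oligosaccharyltransferase that glycosylates them there, were lower. pdi12 measured 6.91 and 7.73 in RIL118, against 8.59 and 8.14 in RIL99 and 8.50 and 8.85 in RIL54, a difference of -1.20 (SE 0.21, adjusted p = 0.0026). dad1 measured 10.62 and 11.28, against 11.75 and 11.89 in RIL99 and 11.70 and 11.89 in RIL54, a difference of -0.86 (SE 0.16, adjusted p = 0.0033). RIL118 did not overlap the favorable lines for either gene, as in every probe set called against both lines. A second pdi12 probe set was called against both as well, at -1.70, with 4.70 and 6.65 on the RIL118 arrays. pdi5, another gene of the family, differed by 0.18 (adjusted p = 0.48). In vdac1a, a channel of the outer mitochondrial membrane, the difference was -0.90 (SE 0.20, adjusted p = 0.011) and was lost without replicate 1 of RIL118 (adjusted p = 0.15). calmodulin, the calcium sensor, differed by -0.69 (SE 0.16, adjusted p = 0.014) and was lost without replicate 2 (adjusted p = 0.10); it was named after its values were seen.

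The remaining lower genes were piip1, IPP and NMP1. piip1 (chromosome 9) had the largest difference, -5.78 (SE 1.30, adjusted p = 0.012), with 6.81 and 2.13 in RIL118, against 10.51 and 10.59 in RIL99 and 8.91 and 10.96 in RIL54. Its RIL118 arrays were far apart, the call was lost without replicate 2 (adjusted p = 0.098), and RIL39 was low too, at 3.53 and 3.46. Of its other probe sets, 2 pointed the same way in the mean contrast, at -5.41 and -4.05, and 1 the opposite way, at 0.66, and none of these was called against both lines. IPP differed by -1.94 (SE 0.43, adjusted p = 0.011) at 1 probe set, a call lost without replicate 1 of RIL118 (adjusted p = 0.16), and by -0.42 and -0.45, not called, at its other probe sets. NMP1 was lower by 1.19 (SE 0.18, adjusted p = 0.0012), at 7.17 and 6.95 in RIL118, against 8.26 and 8.22 in RIL99 and 8.04 and 8.48 in RIL54.

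The locus lies on chromosome 9, and the named genes of that chromosome were counted for that reason. Of 68 tested probe sets placed on chromosome 9 in the assembly Zm-B73-REFERENCE-NAM-5.0, 4 were called against both favorable lines (5.88%), rpo2 and m21 higher and piip1 and dad1 lower. Over all 923 tested probe sets with a chromosome there were 36 (3.90%), and chromosomes 2 and 8 had 7.06% and 6.85%. Where bin 9.02 falls in that assembly is not given in the sources used here, and so the distance of these genes from the locus is not known. rpo2 measured 7.59 and 7.25 in RIL118, against 6.0 and 6.17 in RIL99 and 6.96 and 6.58 in RIL54, and m21 measured 12.13 and 12.03, against 11.39 and 11.44 in RIL99 and 11.46 and 11 in RIL54. In both genes the RIL118 arrays were the highest of the 6, as in every probe set called higher than both lines. In rpo2 the adjusted p against RIL54 was 0.046.

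Of the called probe sets with no listed gene, the 2 largest differences in each direction are given. Zm.13324.1.S1_at measured 10.16 and 9.94 in RIL118 and 2.16 to 2.21 on the 4 favorable arrays, and Zm.15940.1.S1_at 10.52 and 9.46 in RIL118 and 2.36 to 2.46 on the favorable arrays. In the other direction, Zm.1360.1.S1_at measured 2.02 and 2.05 in RIL118 and 7.85 to 8.40 on the favorable arrays, and Zm.13426.1.S1_at 2.62 and 2.57 in RIL118 and 8.31 to 9.26 on the favorable arrays. Each of these 4 probe sets was near the floor on one side and bright on the other. The 2 that were high in RIL118 measured 2.16 to 2.71 on the tassel arrays of RIL39 and RIL71. The 2 that were low in RIL118 were shared with 1 of those lines each: RIL39 was also low for Zm.1360.1.S1_at and RIL71 for Zm.13426.1.S1_at.

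Genes of cellulose and lignin synthesis, the closest to the trait for which the lines were chosen, were not called. None of 4 secondary wall cellulose genes, 9 primary wall cellulose synthases, 5 genes of the phenylpropanoid and monolignol steps and 3 lignin oxidases passed the test in the contrast with the favorable mean, in which 16.3% of all tested probe sets did. After centring of the array medians, 1 of the 3 lignin oxidases was called lower. pal3, a phenylalanine ammonia-lyase, measured 14.09 and 13.85 in RIL118, against 13.93 and 14.01 in RIL99 and 13.81 and 13.73 in RIL54 (difference 0.10, SE 0.13). BM1, the cinnamyl alcohol dehydrogenase gene behind the brown midrib phenotype, measured 14.02 and 14.02, against 14.05 and 14.26 in RIL99 and 13.63 and 13.68 in RIL54 (difference 0.12, SE 0.12). For both genes the RIL118 arrays overlapped the favorable ones. 4CL, the ligase between those steps, measured 13.06 on both RIL118 arrays, under the favorable range of 13.28 to 13.81, and differed by -0.46 with a larger error (SE 0.35, adjusted p = 0.39). Among the secondary wall genes the differences were -0.35 in CesA12, 0.10 in cesa11, 0.11 in cesa10 and 0.49 in bk2, with SEs of 0.41 to 0.47. At early silking cesa10 and bk2 were called higher in RIL118, by 1.42 (adjusted p = 0.034) and 2.41 (adjusted p = 0.0043). The peroxidase PER42 had 10.12 and 11.31 in RIL118, against 12.18 and 12.09 in RIL99 and 11.60 and 11.29 in RIL54 (difference -1.08, adjusted p = 0.058), and was called without replicate 2 of RIL118. Of 2 MYB regulators of the pathway tested, myb42 was called at -1.13 (adjusted p = 0.024) because RIL54, at 6.07 and 6.56, stood apart: RIL118 had 4.25 and 3.77 and RIL99 had 3.84 and 4.10. The myb42 call was lost without either RIL118 array (adjusted p of 0.065 and 0.13).

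Of 9 expansins and xyloglucan endotransglucosylases tested, 3 were lower, 0 higher and 6 not called, with a median difference of -1.18, against 5.9% lower and 10.4% higher over all tested probe sets. Beside expB4 these were expB7, at 9.47 and 9.35 in RIL118, against 11.48 and 12.19 in RIL99 and 11.07 and 9.61 in RIL54, and expB6, at 8.39 and 9.93, against 11.34 and 11.68 in RIL99 and 9.82 and 9.72 in RIL54. Their differences from the favorable mean were -1.68 (adjusted p = 0.030) and -1.47 (adjusted p = 0.037), and neither was called against RIL54. Replicate 2 of RIL118 lay inside the favorable range for expB6. The 4 alpha-expansins and expB8 had differences of -1.37 to -0.53 and xet1 one of 0.80 (adjusted p = 0.055), and none of these passed the test. At early silking the sign was the opposite for expB7 and expB6, which were higher in RIL118 by 2.04 (adjusted p = 0.012) and 2.20 (adjusted p = 0.0046). Without replicate 1 of RIL118, 1 of the 9 was called lower and the median was -0.70, and without replicate 2 there were 3 and the median was -1.56. expB6 was lost without replicate 1 (adjusted p = 0.42) and expB7 without either (adjusted p of 0.14 and 0.094).

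The called meristem and chromatin genes were all higher on the deposited scale. Of 13 meristem regulators tested, 4 were higher and 0 lower (median 0.30), against 10.4% higher and 5.9% lower over all tested probe sets: zap1, knox7 (0.76, adjusted p = 0.0070), fea2 (1.49, adjusted p = 0.019), a leucine-rich repeat receptor that limits meristem size, and the homeobox gene kn1 (0.81, adjusted p = 0.025). Of 29 chromatin genes, 8 were higher and 0 lower (median 0.15), against the same 10.4% and 5.9%, among them the histone deacetylase rpd3 (gene ID 541931, 0.76, adjusted p = 6.44e-04), hmgi/y (0.99, adjusted p = 0.0080) and the acetyltransferase hac108 (0.64, adjusted p = 0.019), and none of the 8 was called against both favorable lines. kn1 measured 11.33 and 11.05 in RIL118, against 10.51 and 10.38 in RIL99 and 10.55 and 10.06 in RIL54. hmgi/y measured 11.11 and 10.53, against 8.98 and 9.12 in RIL99 and 10.54 and 10.69 in RIL54. The kn1 arrays of RIL118 lay above all 4 favorable arrays, although the difference from RIL99 was not called (adjusted p = 0.062), whereas hmgi/y lay above RIL99 and overlapped RIL54. Called meristem genes numbered 2 without replicate 1 of RIL118 and 3 without replicate 2, and called chromatin genes 1 and 5. fea2, hmgi/y and hac108 were lost without replicate 1 (adjusted p of 0.18, 0.13 and 0.18), and knox7 without replicate 2 (adjusted p = 0.056). The chromatin count was 6 higher and 1 lower after quantile normalization and 5 higher and 1 lower after centring of the array medians.

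**Figure D3:**
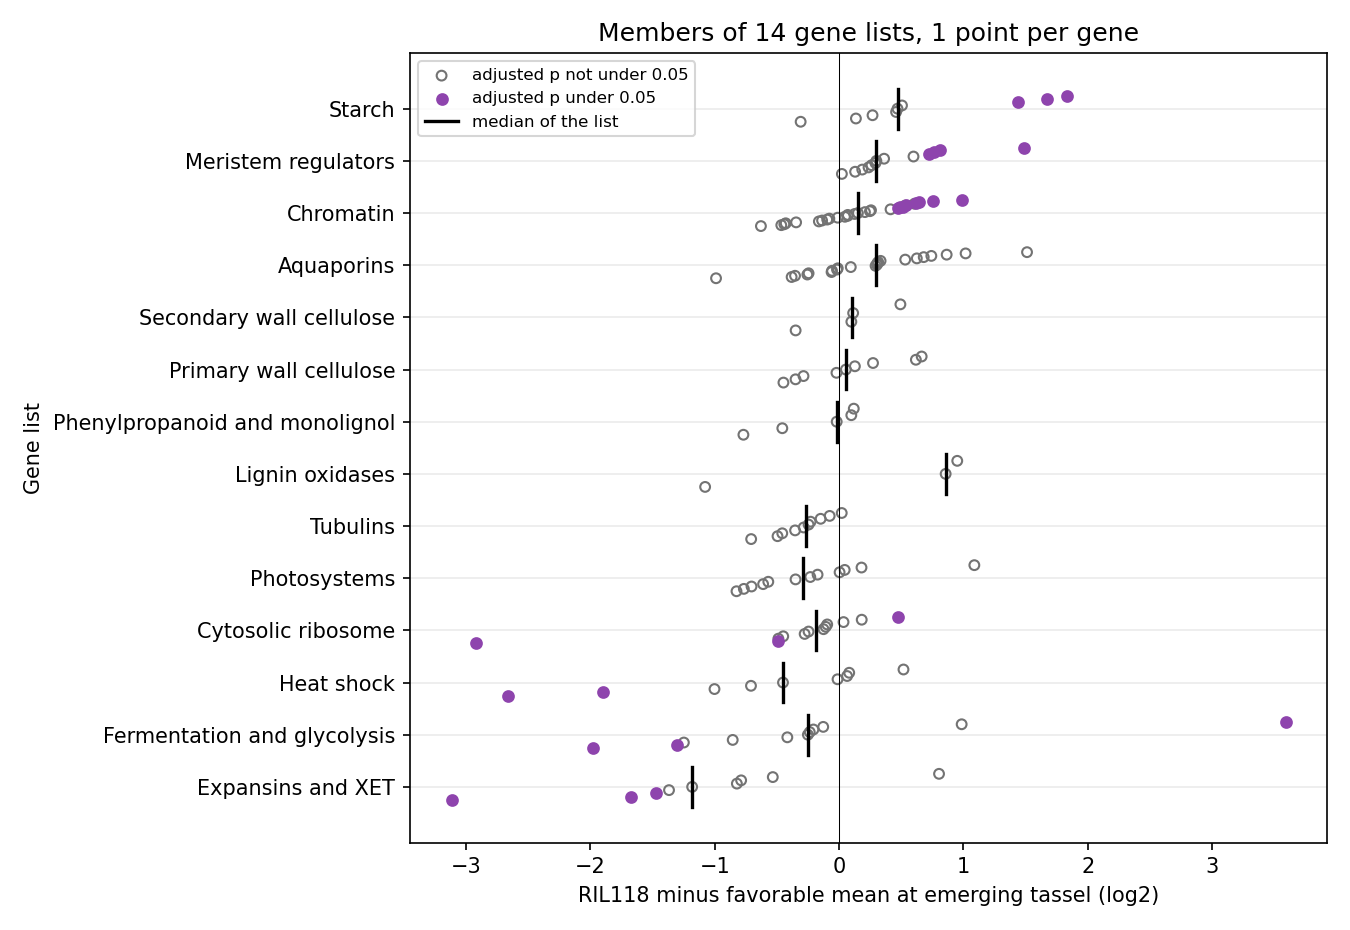
RIL118 minus the favorable mean at emerging tassel (x axis, log2) for each tested gene of 14 lists (y axis), 1 point per gene; filled points had an adjusted p under 0.05 and black bars are list medians. The called starch, meristem and chromatin genes lie to the right of 0 and the called expansins and heat shock genes to the left, while no cellulose, lignin, tubulin, aquaporin or photosystem gene was called.

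The heat shock list had 2 of 9 genes lower, against 5.9% over all tested probe sets, both called against RIL99 and not against RIL54. The list median was -0.45, and it was -0.29 without replicate 1 of RIL118 and -0.69 without replicate 2. hsp22, a small heat shock protein of mitochondria, measured 8.27 and 7.50 in RIL118, against 12.28 and 11.72 in RIL99 and 8.68 and 9.51 in RIL54. hsp18f measured 3.81 and 3.33, against 7.50 and 6.59 in RIL99 and 3.93 and 3.86 in RIL54. For both, RIL118 was nearer to RIL54 than to RIL99. RIL118 was also near RIL54 and below RIL99 for rpl30, a ribosomal protein gene at 2.08 and 2.11 in RIL118 and 2.14 and 2.11 in RIL54, against 7.71 and 8.11 in RIL99, and gln2, a glutamine synthetase, at 8.45 and 8.48 in RIL118 and 8.47 and 8.80 in RIL54, against 10.69 and 10.42 in RIL99. Conversely pcna1, the clamp of DNA replication, and aox1 (gene ID 542073), an alternative oxidase, were called through RIL54: aox1 measured 2.73 and 3.44 in RIL118 and 2.80 and 2.81 in RIL99, against 5.73 and 6.11 in RIL54. GST25 and lox3 were higher in RIL118 than in RIL99 and were not called against RIL54. Without replicate 1 of RIL118, pcna1, GST25 and lox3 lost their calls (adjusted p of 0.17, 0.11 and 0.19). These were the 1 call among 8 nitrogen genes (gln2), 8 cell cycle genes (pcna1), 5 genes of ethylene synthesis and alternative oxidase (aox1) and 2 lipoxygenases (lox3). Over all tested probe sets, 16.3% were called in the contrast with the favorable mean.

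Counts of the other lists stand beside 16.3% called over all tested probe sets, 10.4% higher and 5.9% lower. Of these lists, 22 aquaporins, 10 tubulins and 12 photosystem genes gave no call, with medians of 0.30, -0.27 and -0.29. No call came either from 2 flavonoid genes, 2 LEA and dehydrin genes, 5 epidermis genes and 3 iron transport genes. The medians of the aquaporins, tubulins and photosystem genes moved with 1 array. They were 0.17, -0.20 and 0.003 without replicate 1 of RIL118, and 0.07, -0.42 and -0.55 without replicate 2. After quantile normalization 1 aquaporin was called higher. Of 12 cytosolic ribosomal genes, rpl30 and rps21b were lower and RPS10 was higher. The median of that list was -0.19, and it was 0.10 without replicate 1 of RIL118 and -0.40 without replicate 2. Single calls were GST25 (higher) and gst19 (lower) among 16 glutathione transferases, pdlk1 (higher) among 12 genes of the C4 and Calvin cycles, hk2 (higher) among 16 cytokinin genes and krp1 (higher) among 4 kinesins. Their adjusted p values ran from 0.029 for hk2 to 0.045 for gst19. Without replicate 1 of RIL118, rps21b, RPS10, GST25, gst19, pdlk1, hk2 and krp1 were not called (adjusted p of 0.11 to 0.44), and without replicate 2 pdlk1, GST25 and hk2 were not (0.092 to 0.16). Of 20 fits with 1 array left out, 17 lost rps21b, 14 pdlk1 and 13 each RPS10 and gst19. RPS10 was also lost after quantile normalization, centring of the array medians and with a replicate block (adjusted p of 0.070, 0.067 and 0.057). With the other cell types that could be present, the summed linear level of the photosystem list was 53196 and 70568 in RIL118, against 65299 to 79977 in the favorable lines, and that of the meristem list 14161 and 15051, against 8730 to 11956. The meristem sum includes zap1, kn1 and the other called members given above, so it is not separate from those calls. From the kernel list 1 gene, gz27, and from the anther list 1 gene, mfs2, passed the filter on low values, and neither was called. The part of these markers in the differences was not tested.

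The same contrast at early silking takes its means from other arrays of the same 3 lines. Both contrasts share 1 error per probe set, so their calls are not independent. There, 1759 probe sets were called against the favorable mean (15.9%), 927 higher (8.40%) and 832 lower (7.54%). Of the 357 probe sets higher at tassel, 132 (37.0%) were called higher at silking and 11 lower, and of the 197 lower ones 102 (51.8%) were called lower and 12 higher. The median difference was 1.10 at tassel and 0.31 at silking for the higher set, and -1.48 and -0.73 for the lower set. Of the 19 higher named genes, 7 were called higher at silking too: pr5 differed there by 7.15, bx1 by 4.47, PEAMT by 4.15, pdc2 by 3.41, SE1A by 2.22, HMT-2 by 1.57 and zpu1 by 1.10. Lower at both stages were IPP (-1.77 at silking), IDI2 (-0.86) and dad1 (-0.65).

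Other genes differed at tassel and not at silking, or turned round. For thi1 the difference was 0.25 at silking, where RIL118 measured 11.13 and 11.62 and the favorable arrays 10.88 to 11.38, so that the lines had met at the higher level. AGA3b was at 2.08 on both RIL118 silking arrays and at 2.08 to 2.10 on the favorable ones, and the lines had met at the low end of the scale. The invertase ivr2 turned round: at silking RIL118 measured 6.87 and 7.55, against 2.60 and 1.93 in RIL99 and 1.88 and 2.68 in RIL54, a difference of 4.94 (SE 0.34, adjusted p = 8.59e-07). Those favorable values lie near the floor, so neither this difference nor the change of ivr2 with stage given below has a readable size. RIL39, at 7.55 and 7.53, and RIL71, at 7.71 and 6.86, were level with RIL118 at silking, so that the favorable lines stood apart from the other 3. At tassel RIL39, at 11.71 and 11.57, was close to replicate 2 of RIL118. gpc4 was likewise higher at silking, by 1.52 (adjusted p = 0.0045), and so was calmodulin, by 0.92 (adjusted p = 0.0023). The test of the change itself, tassel difference minus silking difference, called 865 probe sets in all (7.84%), 125 of the 357 (35.0%) and 52 of the 197 (26.4%), with -6.48 for ivr2 (adjusted p = 5.68e-05) and -3.49 for gpc4 (adjusted p = 0.0012). Since the sets were chosen by their tassel values, a smaller difference at silking is partly fixed by that choice.

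**Figure D4:**
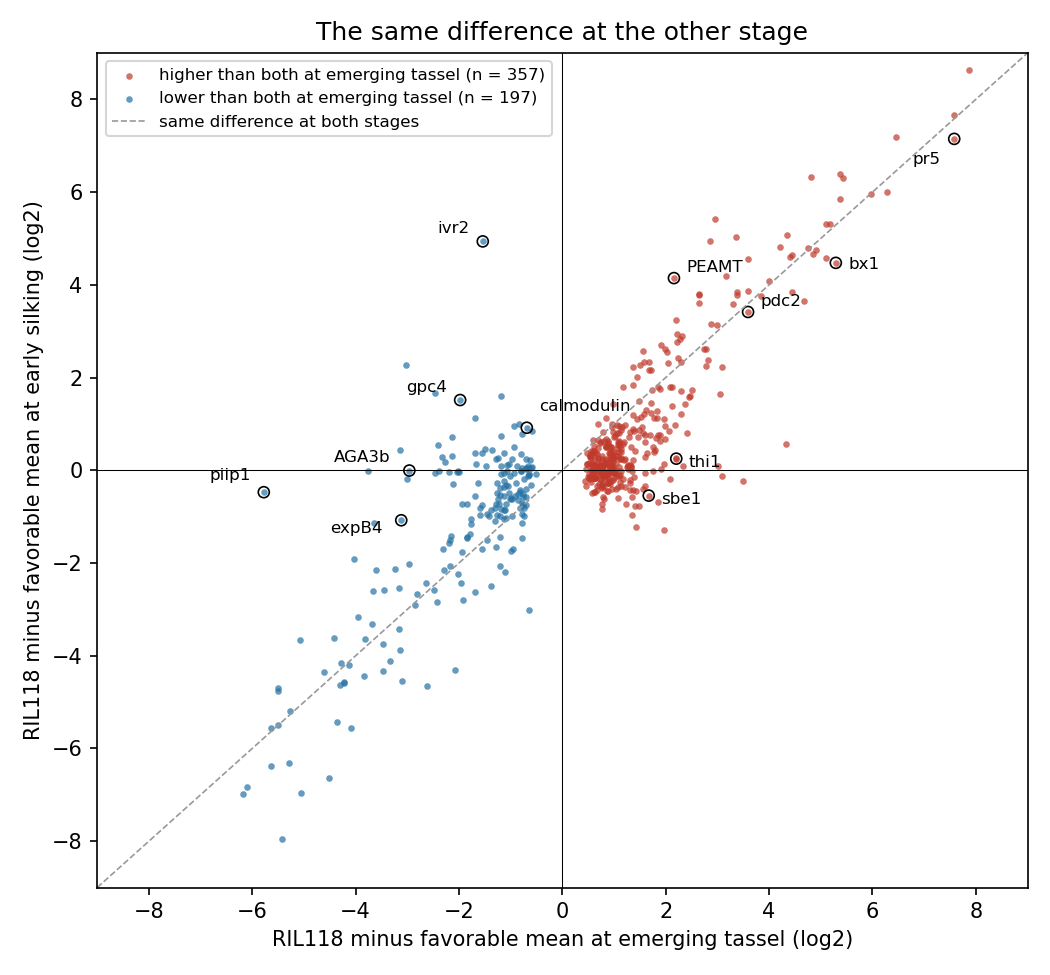
RIL118 minus the favorable mean at emerging tassel (x axis) and at early silking (y axis), in log2 units, for the 357 probe sets higher (red) and 197 lower (blue) than both favorable lines at tassel. Points such as pr5, bx1 and pdc2 lie near the dashed line of equal differences, thi1 and AGA3b lie near 0 at silking, and ivr2, gpc4 and calmodulin are below 0 at tassel and above 0 at silking.

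The called genes were set beside the change from tassel to silking in RIL39 and RIL71, a contrast added after the data were seen. Its group means come from arrays outside the comparison. The error of a probe set is shared by all contrasts of the fit, so the calls with stage are not independent of the tassel calls. Of the 357 higher probe sets, 205 (57.4%) rose with stage in those lines, against 29.2% of all tested probe sets, and 19 fell. Of the 197 lower ones, 73 (37.1%) fell with stage, against 19.6% of all, and 30 rose. Among the named genes, 13 of the 19 higher ones rose with stage and 1 fell, and 7 of the 13 lower ones fell and 1 rose. thi1 rose by 2.02 (adjusted p = 1.46e-04), sbe1 by 1.36 and zap1 by 1.02, whereas expB4 fell by 3.26, AGA3b fell by 4.14 and ivr2 fell by 4.71. The direction was opposite for PEAMT, higher in RIL118, which fell by 2.12 with stage. pr5, bx1, pdc2, HMT-2 and zpu1 had no called change with stage. Without replicate 1 of RIL118, the array less like silking, 71 of 152 higher probe sets rose with stage (46.7%), and without replicate 2, 217 of 462 (47.0%), against 30.6% of all in both fits. For the lower set, 39.1% fell with stage and 19.1% rose without replicate 1. Without replicate 2 the order turned: 97 of 431 fell (22.5%) and 131 rose (30.4%), both close to the 20.8% and 30.6% of all tested probe sets.

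Each RIL118 array carried weight in the counts. Without replicate 1, 152 probe sets were higher than both lines and 115 lower (2.42% in all), and 211 of these 267 were among the 554. Without replicate 2, 462 were higher and 431 lower (8.09%), and 432 were among the 554. Called with all arrays and without either RIL118 array were 107 higher and 74 lower probe sets, and among them 9 named genes: pr5, bx1, pdc2, SE1A, HMT-2 and sbe1 higher, and AGA3b, gpc4 and NMP1 lower. thi1 was not called against both lines without replicate 2, PEAMT, zpu1, CAF1, MTK-1, rpo2, zap1, pdi12 and dad1 not without replicate 1, and thi2 in neither case, although their mean contrasts stayed under the threshold in both. In a fit to the 6 compared arrays alone, the mean contrast of 26 of the 32 named genes was not called, with adjusted p of 0.0525 for gpc4, 0.0556 for NMP1, 0.0783 for sbe1 and 0.113 for bx1. The 6 still called there were pr5, pdc2, SE1A, HMT-2, PEAMT and AGA3b. The favorable arrays moved the counts as far, with 251 calls without replicate 2 of RIL54 and 262 without replicate 1 of RIL99.

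**Figure D5:**
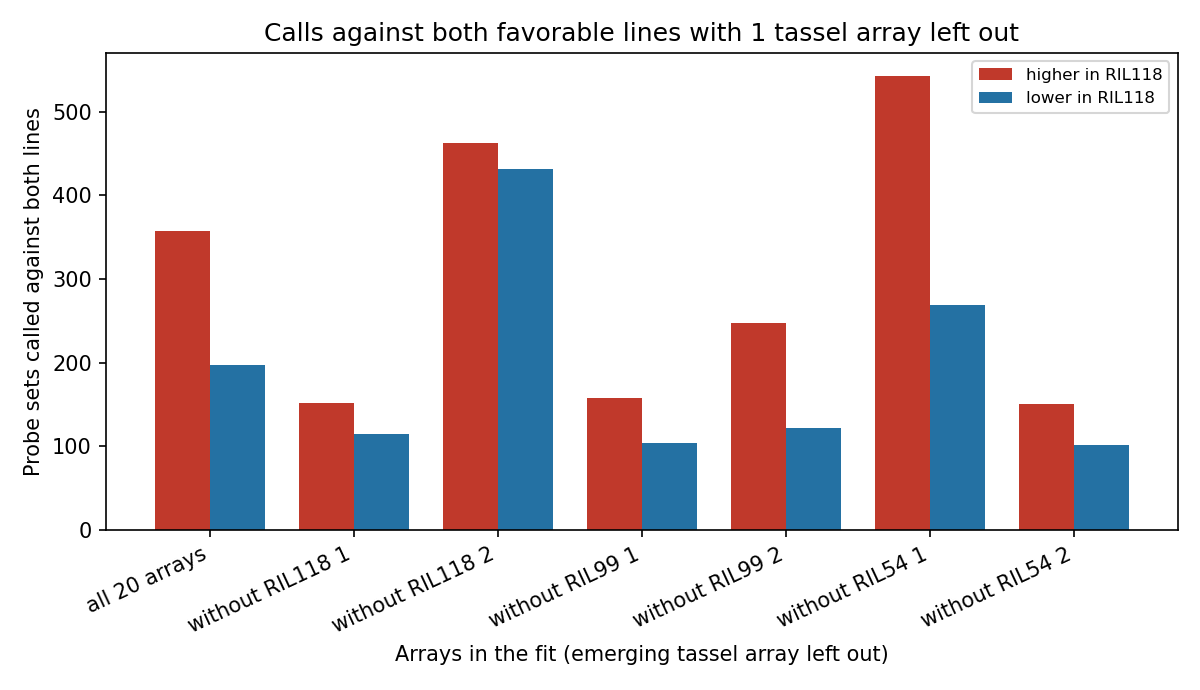
Number of probe sets called against both favorable lines (y axis), higher (red) and lower (blue) in RIL118, with all 20 arrays and with each of the 6 compared arrays left out (x axis). Counts run from 251 without RIL54 replicate 2 to 893 without RIL118 replicate 2.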

How the data were processed

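Total RNA from the ear internode was amplified, labelled with biotin and hybridised to an Affymetrix maize array, per the labels. The deposited values are log2 levels per probe set that the authors made with GCRMA, per the submitters' processing notes, with no version given. That method removes background, puts the arrays on one scale and gives 1 value per probe set, and it draws low levels toward a floor. All 20 arrays, 2 for each of 10 groups of line and stage, were used, and the number of arrays limits the precision.

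The 179 control probe sets were left out, and 11033 of 17555 maize probe sets with a log2 value above 5 on at least 2 arrays were tested. One mean per group was fitted with limma 3.58.1 (lmFit and eBayes) in R 4.3.3, with contrasts of RIL118 minus RIL99, minus RIL54 and minus their mean. Adjusted p-values are Benjamini-Hochberg over all tested probe sets, with a threshold of 0.05. The script was checked on simulated data.

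The named genes were the 12 largest rises and 12 largest falls called against both favorable lines at tassel, up to 3 called members of each list by smallest p, up to 8 called genes of chromosome 9, up to 6 genes under 4 on one side and above 6 on the other, and the 2 largest rises and falls without a gene name. Names came from the platform annotation, updated by gene ID, and chromosomes from Zm-B73-REFERENCE-NAM-5.0. Members and the 32 gene lists were chosen with earlier results of these data known. Alternatives were the filter, normalization, array subsets, array weights, RNA amount, a replicate block and leaving out each array. No sequences are given.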

Additional observations from a re-analysis of the deposited data

Results flagged for a closer look

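For 21 of the named features the difference between RIL118 and the favorable lines itself changed with stage, by limma's test of the tassel difference minus the silking difference (adjusted p under 0.05 over all tested probe sets). Values below are that change on the log2 scale. It was positive, a difference further upward at tassel than at silking, for sbe1 (2.22), thi1 (1.95), set105 (1.42), psiP (1.33), RPS10 (0.91), m21 (0.82), AR6 (0.74), zap1 (0.67) and rpd3 (gene ID 541931, 0.55). It was negative for hsp22 (-7.69), ivr2 (-6.48), hsp18f (-3.80), expB7 (-3.72), expB6 (-3.68), gpc4 (-3.49), AGA3b (-2.95), PEAMT (-1.99), calmodulin (-1.61) and NMP1 (-1.28). Of the probe sets with no listed gene, Zm.13324.1.S1_at changed by -0.78 and Zm.1360.1.S1_at by 0.73, both small beside differences of 7.86 and -6.11 at tassel.

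The heat shock genes hsp22 and hsp18f stood lower in RIL118 than the favorable mean at tassel, by 2.66 and 1.90, and higher at silking, by 5.03 and 1.91. At tassel RIL99 had the highest levels of the 3 lines. At silking hsp22 measured 8.53 and 9.17 in RIL118, against 3.36 and 3.37 in RIL99 and 3.51 and 5.04 in RIL54.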

How the results depend on the processing

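Among 1200 refits of named features with 1 array left out in turn, 1071 kept direction and call and 129 kept direction only. Of 596 under other settings, 490 and 106 did so. Leaving out an array outside the comparison cannot change the difference between the group means, only its error. The same holds for array weights, the filter, a replicate block and fits to the tassel or compared arrays alone. No direction reversed, but in those refits that was fixed in advance and is no test of direction. With 1 array left out, calls ran from 758 to 2146 against RIL99, 560 to 2453 against RIL54, 662 to 2628 against their mean and 975 to 2011 between RIL54 and RIL99, from 788 to 1952 at silking and from 172 to 1585 for the change with stage. Calls against both favorable lines ran from 251 to 893 at tassel and from 344 to 786 at silking. At tassel they were 267 and 893 without RIL118 replicates 1 and 2, 262 and 369 without those of RIL99, and 812 and 251 without those of RIL54.

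Fits to the 10 tassel arrays or to the 6 compared arrays gave fewer calls than the fit to all 20. With the 10 tassel arrays there were 1051 against RIL99, 689 against RIL54, 806 against their mean, 1070 between RIL54 and RIL99 and 238 against both. With the 6 compared arrays these were 382, 239, 235, 636 and 90, and 26 of the 32 named genes called against both lines lost the mean contrast, among them thi1 (adjusted p = 0.0765) and expB4 (0.14). Array weights gave 1193, 513 and 639 against RIL99, RIL54 and their mean and 338 for the change with stage. Against both lines they gave 205, where the main fit gave 554. The weights were lowest for the tassel arrays of RIL118 (0.47) and RIL54 (0.48) and highest for those of RIL39 (3.62). The cause of the lower counts was not tested. RNA amount as a covariate gave 423 for the change with stage; the cause was not tested. A fold minimum of 2, a stricter rule, left 1080, 929 and 774, with 1220 between RIL54 and RIL99, 949 at silking and 343 against both. Replicate numbers did not pair the arrays in a uniform way. At tassel, replicate 2 minus replicate 1 correlated at 0.445 between RIL118 and RIL99. It correlated at -0.061 between RIL118 and RIL54 and at -0.112 between RIL99 and RIL54. Over all 45 pairs of groups r ran from -0.436 to 0.512. The fit with a replicate block called 488 against both lines.

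The deposited values carry no detection call, so differences of features near the floor have no readable size.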
